A study of Mus musculus with 17 samples.

Results

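The active alpha-globin locus of mouse erythroid cells was looked at from a pair of neighbouring sites: R2, an enhancer of the alpha-globin genes, and a site of the insulator protein CTCF that lies 13.5 kb further upstream. The data are 10 erythroid libraries, of 17 libraries in the series, chosen by their label and summed into 3 biological replicates. Each library was read in the table of both viewpoints, so the comparison of R2 with CTCF was paired within a replicate. All 6 profiles were counted on the same bins of a fixed stretch, chromosome 11 from 32000001 to 32300000 in mm9 (1-based), and scaled to the pairs with both fragments inside it. Bins with a centre within 5 kb of either viewpoint were left out.

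The assay was Tri-C, in which cross-linked chromatin is cut with NlaIII, ligated and enriched for fragments joined to a chosen viewpoint. When 1 read holds the viewpoint with 2 or more further fragments, these are taken as joined in the same nucleus. Fragments near the viewpoint are taken as being on its own copy of the chromosome. Many pairs reach other chromosomes. From R2 in erythroid replicate 1, pairs inside the stretch were 51.8% of chromosome 11 pairs but 15.8% of all pairs. The erythroid cells were Ter-119+ cells, taken with a PE-coupled antibody and magnetic beads from spleens of female C57BL/6 mice (strain given as C57Bl6). Per the labels the mice had received 3 phenylhydrazine doses of 40 mg/g, 12 h apart, and were killed 5 days later; the drug destroys red cells and drives erythropoiesis in the spleen. The 7 ES libraries used for comparison come from E14, an established line of strain 129/Ola with an inactive globin locus, also in 3 replicates, so cell type, strain and treatment cannot be told apart in any comparison between them. Whether each biological replicate was 1 animal or a pool is not told in the labels, so the p-values cover the spread among these samples, which may be technical. The files hold contacts and no expression, so the identity of the cells was not checked against marker genes here. In a population of cells, fewer alleles with a contact and a weaker contact on each allele cannot be told apart.

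The alpha-globin cluster is a textbook case of distant gene control. The enhancers R1, R2, R3, Rm and R4 lie upstream of the embryonic gene Hba-x, which encodes zeta-globin, and of Hba-a1 and its copy Hba-a2, the adult genes for the alpha chain of haemoglobin. CTCF is a zinc finger protein that halts loop extrusion by cohesin, and CTCF sites flank the enhancers and genes on both sides. The viewpoint called CTCF here is in the upstream flank; the windows called CTCF +44 and CTCF +48 are at the downstream edge, named by their distance in kb from Hba-x.

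The R2 viewpoint, read as the gap that its own table leaves, spans chr11:32149923-32152111, and the CTCF viewpoint spans chr11:32136092-32138888 (mm9). The windows were placed on mm9 by the usual names of the sites, which count kb from Hba-x, without an mm9 annotation, so no exon or intron is assigned to them. The windows of R1 (chr11:32144518-32146000) and R3 (chr11:32156001-32157517) were shortened by the bins left out. Rm is at chr11:32163518-32166517, R4 at chr11:32167518-32170517, Hba-x at chr11:32175518-32178517, Hba-a1 at chr11:32182518-32185517 and Hba-a2 at chr11:32195518-32198517. CTCF +44 is at chr11:32219518-32222517, CTCF +48 at chr11:32223518-32226517, and a window of the upstream flank at chr11:32115518-32118517.

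The adult genes are near-identical copies, which bears on every value given for them. The 150 bases before the annotated start of each gene are shown because the match reaches into the promoters; they are RefSeq's, on the plus strand of GRCm38.p6, a later build than the mm9 of the contacts. Capitals mark an NlaIII site, a CCAAT box or a CACCC box, each searched by these letters (CATG for the first) on both strands.
Hba-x (chr11:32276450-32276599): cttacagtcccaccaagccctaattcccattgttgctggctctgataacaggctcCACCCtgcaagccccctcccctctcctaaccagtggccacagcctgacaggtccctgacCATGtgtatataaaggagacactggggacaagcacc
Hba-a1 (chr11:32283522-32283671): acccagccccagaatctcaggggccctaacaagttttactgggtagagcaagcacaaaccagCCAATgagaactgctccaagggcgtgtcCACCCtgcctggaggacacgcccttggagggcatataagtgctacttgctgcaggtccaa
Hba-a2 (chr11:32296342-32296491): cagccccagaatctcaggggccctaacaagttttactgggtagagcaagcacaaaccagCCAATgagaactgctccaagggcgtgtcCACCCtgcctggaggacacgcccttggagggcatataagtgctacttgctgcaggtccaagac

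Shifted by 3 bases, the Hba-a1 and Hba-a2 stretches were identical at 147 of 147 bases. Each holds 1 CCAAT box and 1 CACCC box and no NlaIII site, whereas the Hba-x stretch has 1 CACCC box, 1 NlaIII site and no CCAAT box. Over 32851 RefSeq promoters the same stretch held an NlaIII site in 36.5%, a CCAAT box in 24.5% and a CACCC box in 37.4%. In the contact tables, 8 NlaIII fragments of Hba-a1 had a fragment of the same length 12817 bp further on, at Hba-a2. Their counts in both places differed by a median of 0.05 (log2) from R2 and 0.07 from CTCF, and by at most 0.90 and 0.20. No source used here says how reads of such fragments were assigned, so values for Hba-a1 and Hba-a2 are uncertain as separate measurements.

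Depth differed between replicates more than between viewpoints. The erythroid replicates held 37390 to 99640 in-range pairs from R2 and 56510 to 157640 from CTCF, which were 12.99 to 21.2% of all pairs for R2 and 21.5 to 34.3% for CTCF. A fragment pair had a mean count per library of 4.24 to 5.68 from R2 and 4.55 to 6.10 from CTCF. These counts carry no molecular identifiers, and the 3 first technical replicates stood apart, with 2.23 to 2.88 counts per fragment pair from R2 against 5.34 to 7.23 in the 7 later ones. Many pairs joined neighbouring fragments: partners were under 1 kb apart in 47.7 to 59.6% of R2 pairs and 52.7 to 63.0% of CTCF pairs. The erythroid tests by bin, window and pair were therefore also run without the first technical replicates. They were also run with every fragment pair taken as 1 in each library, and with partners at least 2 kb apart. The shares of contacts and the comparison with ES cells were not run without the first technical replicates. Of these settings, the reads that join both viewpoints and the test of pairs against an expected count had only every fragment pair taken as 1.

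**Figure D1:**
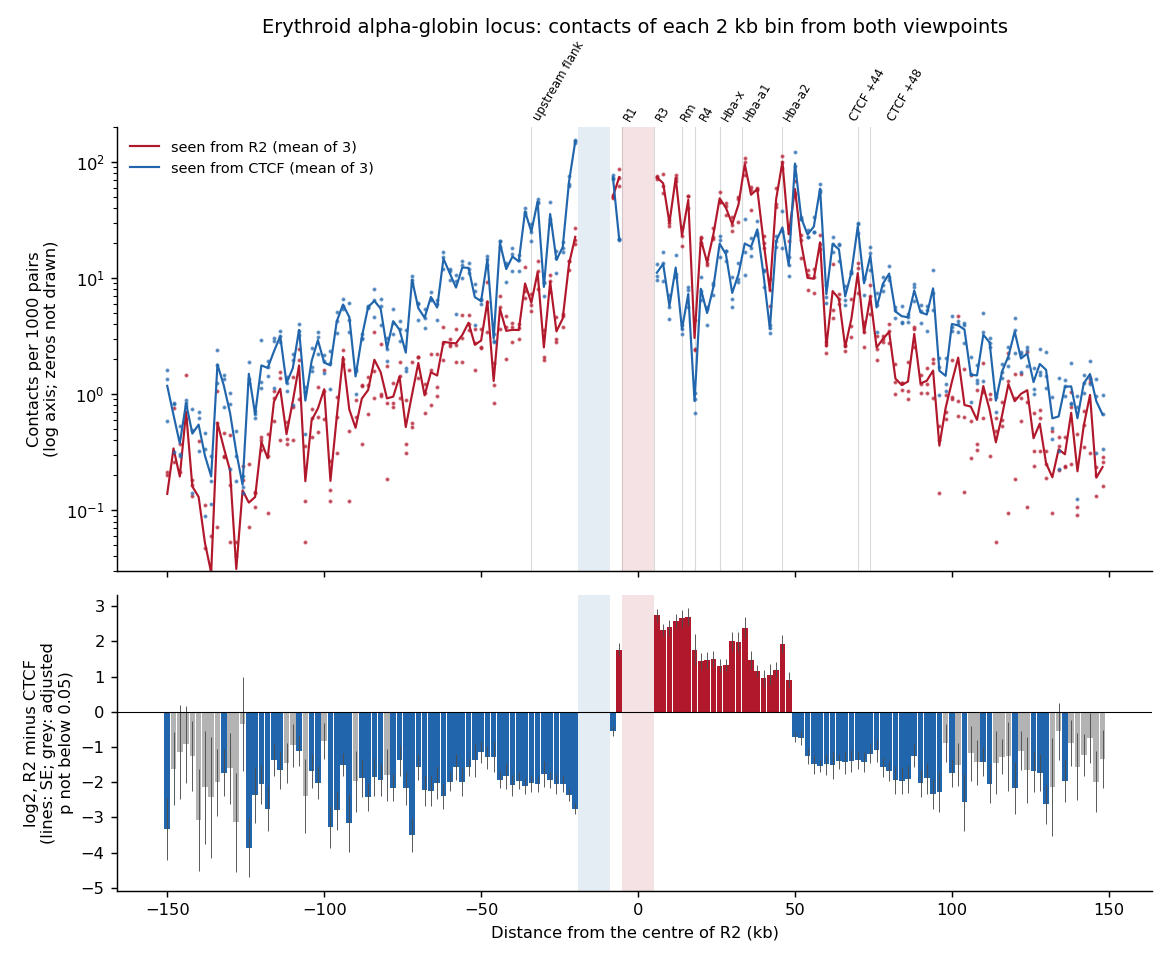
Top, contacts of each 2 kb bin per 1000 in-range pairs (log axis) against the distance from R2 in kb, in erythroid cells; lines are means of 3 replicates and dots the replicates. Bottom, the log2 difference R2 minus CTCF with its standard error, coloured where the adjusted p was below 0.05. Shaded bands are the bins left out; the R2 curve lies above the CTCF curve from 6 to 48 kb downstream and below it on both outer flanks.

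From R2, contacts filled the interval from R1 to the end of the adult gene windows, and outside it nearly every bin had more contacts from CTCF. A level below is the number of contacts in a bin per 1000 in-range pairs, where both fragments of a pair are counted, each in its own bin. With edgeR's paired quasi-likelihood test, 23 of 140 bins were higher from R2 (16.4%) and 83 were lower (59.3%) at an adjusted p below 0.05. The higher bins were the 22 that run without a break from 32156001 to 32200000, plus 1 bin at R1. The replicates of both viewpoints did not overlap in 120 of the 140 bins.

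The 5 bins with the largest rise all lay on the enhancer side, between R3 and R4. The bin chr11:32156001-32158000, which holds R3, had 71.0, 76.3 and 73.9 contacts from R2 in replicates 1 to 3 against 10.4, 9.72 and 13.2 from CTCF, a log2 difference of 2.74 ± 0.18 (SE; edgeR adjusted p = 1.7e-04). All R2 replicates were thus above all CTCF replicates. The bin chr11:32166001-32168000, at the border of Rm and R4, had 50.7, 51.0 and 40.1 against 7.85, 5.63 and 8.42 (log2 2.70 ± 0.24). Bins at chr11:32164001-32166000, chr11:32162001-32164000 and chr11:32160001-32162000 were higher by 2.66, 2.59 and 2.40.

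On the far upstream side the order turned over. The bin chr11:32078001-32080000, 58 kb upstream of CTCF and 72 kb upstream of R2, had 9.06, 10.4 and 9.59 contacts from CTCF against 0.524, 0.562 and 1.91 from R2 (log2 -3.50 ± 0.49, edgeR adjusted p = 0.0014). The other bins named by size of fall, at chr11:32026001-32028000, chr11:32000001-32002000, chr11:32052001-32054000 and chr11:32058001-32060000, fell by 3.86, 3.33, 3.28 and 3.15 on the log2 scale. These 4 are sparse bins with 29, 29, 30 and 184 counts in all from R2, and their levels from CTCF were at most 6.05 in any replicate. With TMM factors none of the 4 was called; without replicate 3 the bin at 32000001 was not (edgeR adjusted p = 0.067), nor without replicate 2 that at 32058001 (edgeR adjusted p = 0.0599).

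The change of sign on the downstream side fell between neighbouring bins just beyond Hba-a2. The bin chr11:32198001-32200000 had 26.5, 24.4 and 21.0 contacts from R2 against 13.1, 10.4 and 15.2 from CTCF (log2 0.90 ± 0.22, edgeR adjusted p = 0.010). The next bin, chr11:32200001-32202000, had 52.3, 53.9 and 69.2 from R2 against 76.8, 92.0 and 122.2 from CTCF (log2 -0.72 ± 0.14, edgeR adjusted p = 0.0048). Scaled to in-range pairs, therefore, the viewpoint with more contacts changed within 2 kb, and in neither bin did the replicates overlap. The second bin was not called lower with TMM factors or with partners at least 2 kb apart. With DESeq2 it was called higher from R2. This second bin was the highest of all bins downstream of R2 for the CTCF viewpoint, and was picked out after its values were seen. For R2, the highest bins downstream were those at Hba-a2 (chr11:32196001-32198000, 88.3, 111.9 and 99.9) and Hba-a1 (chr11:32184001-32186000, 77.6, 100.5 and 108.9).

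The scaling decides how the lower bins are read. A viewpoint's contacts are a share of a fixed total, so more contacts in 1 interval leave fewer elsewhere; the median log2 difference over all 140 bins was -1.57. With TMM factors, which set that median near 0 (0.0018), 25 bins were higher and 2 lower, and with DESeq2's own factors 26 were higher and 7 lower. The rise on the enhancer side and at the genes was thus called under each of these scalings. The falls on the flanks and just beyond Hba-a2 rest on scaling to in-range pairs.

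**Figure D2:**
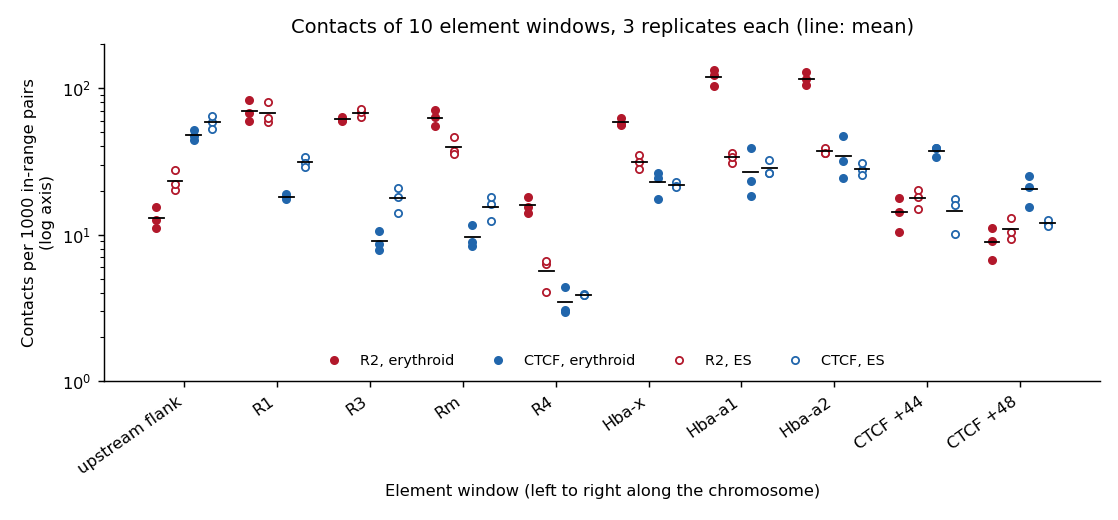
Contacts per 1000 in-range pairs (log axis) in each of 10 element windows, for R2 (red) and CTCF (blue), in erythroid cells (filled) and ES cells (open); points are the 3 replicates and lines their means. In erythroid cells the R2 and CTCF replicates do not overlap in any window.

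All 10 windows passed the test in erythroid cells, 7 higher and 3 lower from R2, and in none did the replicates of the viewpoints overlap. Passing was common over the whole range: of 140 bins, 23 were higher and 83 lower, and in 120 the replicates did not overlap. The upstream flank window, which holds no named element, passed as well. The window counts below are contacts per 1000 in-range pairs, given for replicates 1 to 3. Windows differ in length and in number of NlaIII fragments, so levels are set against the other viewpoint and not against other windows.

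Among the enhancers, R3 had 59.9, 63.4 and 60.5 contacts from R2 and 7.91, 8.65 and 10.6 from CTCF. It had the largest difference of the windows, log2 2.77 ± 0.25 (edgeR adjusted p = 4.7e-09). Rm, which has little enhancer activity alone, had 70.8, 63.5 and 54.8 against 8.35, 8.88 and 11.7 (log2 2.72 ± 0.25). R4, the enhancer nearest the genes, had 15.4, 18.1 and 14.1 against 4.38, 2.97 and 3.04 (log2 2.21 ± 0.25). R1, which with R2 is a strong enhancer of the cluster, lies between the viewpoints, 5 kb from R2 and 8.5 kb from CTCF. It had 67.3, 83.5 and 59.3 contacts from R2 against 17.6, 18.2 and 18.9 from CTCF (log2 1.93 ± 0.24). A neighbouring bin between the viewpoints, chr11:32142001-32144000, went the other way at 49.8, 48.8 and 52.2 against 71.1, 73.4 and 76.7 (log2 -0.55 ± 0.14, edgeR adjusted p = 0.012). With TMM or DESeq2 factors this bin was called higher from R2. With every fragment pair taken as 1 in each library it was not called lower.

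At the genes, Hba-a1 had 103.4, 132.0 and 122.7 contacts from R2 and 23.3, 18.3 and 39.1 from CTCF (log2 2.21 ± 0.25, edgeR adjusted p = 6.9e-08). Its copy Hba-a2 had 104.5, 128.9 and 114.6 against 31.7, 24.3 and 47.4 (log2 1.797 ± 0.24). The lowest R2 replicate was above the highest CTCF replicate in both windows, although CTCF replicate 3 stood above its fellows. Hba-x, which erythroid cells of the adult do not use, had 56.0, 56.9 and 62.2 against 26.5, 17.6 and 24.5 (log2 1.37 ± 0.24), the smallest rise of the 7.

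At the CTCF windows and the upstream flank, contacts were fewer from R2. CTCF +44 had 17.9, 10.5 and 14.3 contacts from R2 and 38.9, 38.8 and 33.8 from the CTCF viewpoint (log2 -1.41 ± 0.24, edgeR adjusted p = 1.3e-05). CTCF +48 had 6.72, 11.2 and 9.01 against 21.3, 25.3 and 15.4 (log2 -1.20 ± 0.24). The upstream flank had 11.1, 12.5 and 15.5 against 44.4, 52.03 and 47.4 (log2 -1.88 ± 0.24). With TMM or DESeq2 factors these 3 falls were not called, and CTCF +44 and CTCF +48 were slightly higher from R2, at 0.16 and 0.38 with TMM. R2 lies nearer than CTCF to every downstream window, by the 13.5 kb between the viewpoints, so position and identity of a viewpoint cannot be told apart here.

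**Figure D3:**
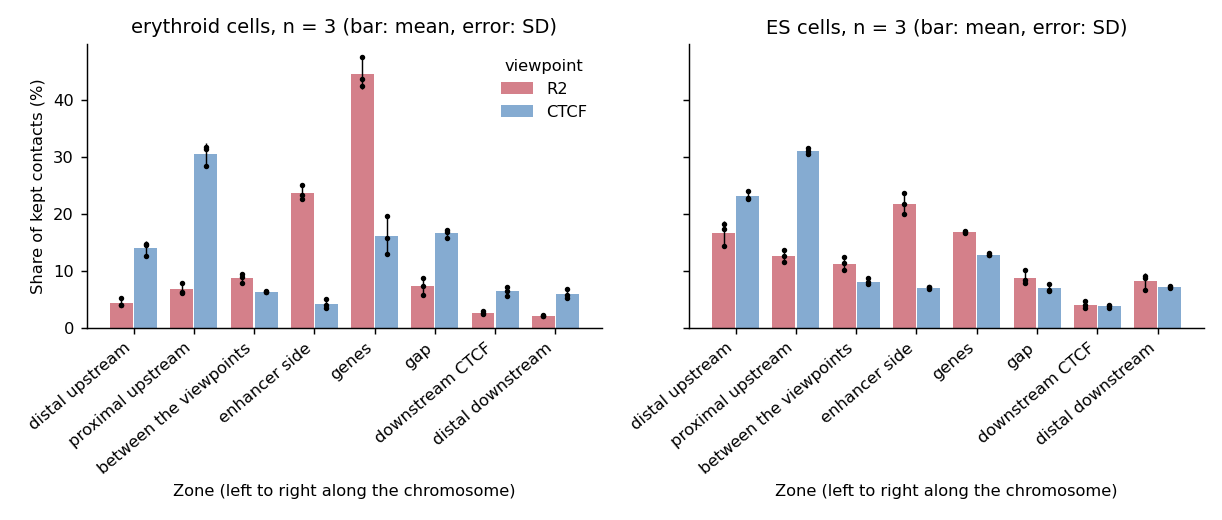
Share of kept contacts (%) in 8 zones of the locus, in order along the chromosome, for R2 (red) and CTCF (blue); bars are means of 3 replicates, error bars the SD and dots the replicates. From R2 the genes zone takes 44.6% in erythroid cells and 16.8% in ES cells.

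Summed into zones, most R2 contacts fell on the enhancer side and the genes, and a minor share of the CTCF contacts did. The genes zone took 43.7, 47.5 and 42.5% of kept contacts from R2 and 15.7, 13.03 and 19.6% from CTCF. The enhancer side, from R2 to 5 kb before Hba-x, took 25.0, 22.6 and 23.2% against 3.98, 3.41 and 5.02%. Between the viewpoints the shares were 8.71% ± 0.79 from R2 and 6.32% ± 0.13 from CTCF (SD, n = 3).

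For CTCF the largest zone was the flank next to it. Proximal upstream bins took 30.6% ± 1.8 of its contacts and 6.75% ± 0.95 of those of R2, and distal upstream bins 13.99% ± 1.2 and 4.37% ± 0.70. The gap between the genes and the downstream CTCF windows, chr11:32201018-32216017, took 16.6% ± 0.74 from CTCF and 7.28% ± 1.5 from R2. Downstream CTCF bins took 6.38% ± 0.83 and 2.62% ± 0.27, and distal downstream bins 5.93% ± 0.76 and 2.10% ± 0.092. In each of the 8 zones all 3 replicates differed in the same direction, but the exact two-sided sign-flip test over 3 pairs cannot go below 0.25, and gave that value in every zone before and after adjustment over the 8.

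Seen by distance, both viewpoints had more contacts downstream than upstream, and their peaks lay at different distances. Of contacts 20 to 100 kb away, 85.9% ± 1.9 were downstream from R2 and 67.9% ± 3.4 from CTCF. Between 20 and 40 kb downstream, a band that holds Hba-x and Hba-a1 for R2 and Rm, R4 and Hba-x for CTCF, R2 had 422.1, 460.1 and 431.5 contacts per 1000 in-range pairs and CTCF 83.0, 66.1 and 98.8. Between 60 and 80 kb downstream, which for CTCF begins beyond the centre of Hba-a2 and for R2 includes CTCF +44 and CTCF +48, CTCF had 282.8, 310.3 and 328.3 and R2 52.7, 48.6 and 54.5. The order of the viewpoints thus turned over between these bands, and no replicates overlapped. Between 40 and 60 kb the levels were 305.8 ± 12.97 for R2 and 163.0 ± 36.3 for CTCF, and between 80 and 100 kb they were 14.1 ± 1.9 and 102.5 ± 12.7.

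Upstream bands were higher from CTCF at all distances. They fell from 154.4 ± 4.9 between 20 and 40 kb to 26.8 ± 3.0 between 80 and 100 kb from CTCF, and from 72.7 ± 10.1 to 10.8 ± 3.8 from R2. Between them, the bands at 40 to 60 kb had 90.4 ± 12.6 and 36.002 ± 6.0, and those at 60 to 80 kb 37.9 ± 4.4 and 14.3 ± 2.9. For these 8 bands, too, the exact sign-flip p was 0.25, the smallest 3 pairs allow.

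**Figure D4:**
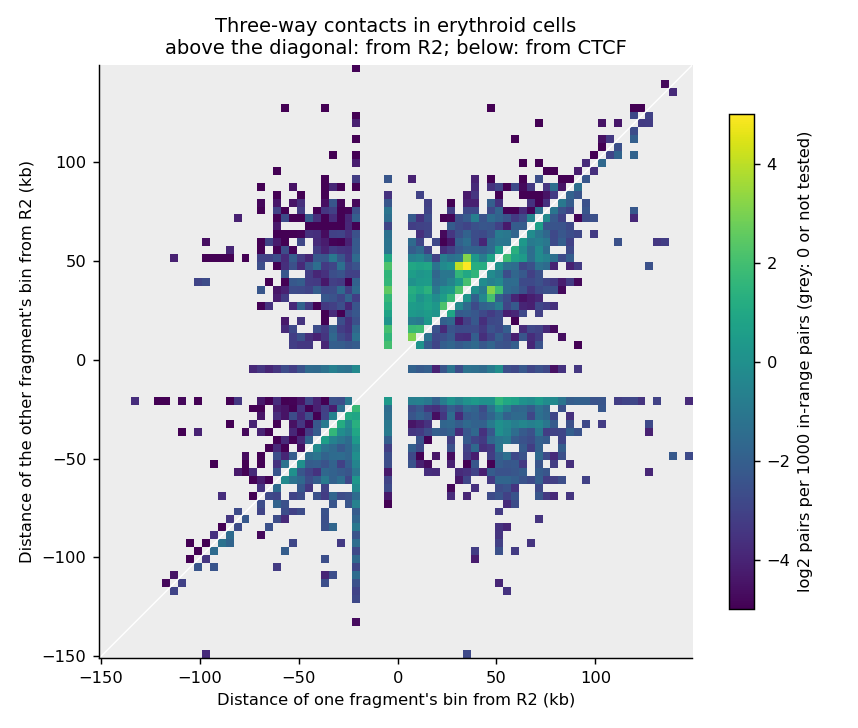
Three-way contacts in erythroid cells as pairs of 4 kb bins, placed by distance from R2 in kb; colour is the log2 level per 1000 in-range pairs (mean of 3 replicates), with pairs at 0 or below the count minimum in grey. Above the diagonal, seen from R2, the filled block is the enhancer side with the genes; below it, seen from CTCF, pairs lie near the viewpoint and cross to the downstream gap.

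Three-way contacts repeated the interval of the single contacts. Of 591 pairs of 4 kb bins with at least 30 counts, 47 were more frequent from R2 (7.95%) and 59 less frequent (9.98%) in edgeR's paired test. All 47 had both bins between R1 and the end of the genes: 21 of 28 pairs joining the enhancer side to the genes were among them, 11 of 21 within the genes, 4 of 6 within the enhancer side, and all 4 and all 7 pairs that join the bin at R1 to the enhancer side and to the genes. The 59 lay elsewhere, with 14 of 63 pairs joining distal to proximal upstream bins, 12 of 15 within the proximal upstream zone, 10 of 24 joining it to the gap and 8 of 22 joining it to the downstream CTCF bins. Another 5 of 40 joined the proximal upstream zone to the genes. The 4 kb bin at R1, chr11:32144001-32148000, was kept because its centre lies just over 5 kb from R2. Its part from 32146001 on is in the 2 kb bins left out near R2, so its pairs include fragments that the bin and window results do not.

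These counts depended on the replicates and on the block. Without replicate 1, 25 pairs were more and 14 less frequent, of 466 tested; without replicate 2 the counts were 38 and 38, and without replicate 3 they were 38 and 24. With no replicate block they were 57 and 134, and without the first technical replicates 41 and 34.

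The most increased pairs all had both bins between R1 and Hba-a1. The bin between R3 and Rm, which reaches into the edge of the Rm window, with the bin at Hba-a1 (chr11:32160001-32164000 with chr11:32184001-32188000) had 1.67, 2.06 and 1.83 pairs per 1000 in-range pairs from R2 and 0.028, 0 and 0.197 from CTCF. Its log2 difference was 5.12 ± 0.88 (edgeR adjusted p = 6.5e-07), from 141 distinct fragment pairs, summed over libraries, against 17. The bin at R1 with the bin that holds the first part of the Hba-a1 window (chr11:32144001-32148000 with chr11:32180001-32184000) had 3.64, 3.42 and 2.39 against 0.084, 0.159 and 0.222 (log2 4.35 ± 0.71). The bin at R1 with that at R4 (chr11:32168001-32172000) had 1.29, 1.18 and 0.943 against 0.056, 0.106 and 0.025 (log2 4.34 ± 0.95). The remaining named pairs, of the Rm bin (chr11:32164001-32168000) with chr11:32172001-32176000, most of which lies before the Hba-x window, and of the R4 bin with chr11:32180001-32184000, differed by 4.77 ± 0.95 and 4.45 ± 1.09, on 11 and 7 distinct pairs from CTCF. The last of these was not called without replicate 1 (edgeR adjusted p = 0.086).

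The most decreased pairs had no count from R2 at all. The bin chr11:32128001-32132000, next to the CTCF viewpoint, with chr11:32076001-32080000 had 0.507, 1.33 and 0.152 pairs per 1000 from CTCF and 0 in each replicate from R2, so that it was at least 28.2-fold higher from CTCF, taking 3 counts over the R2 replicates as the floor. The same bin with chr11:32056001-32060000 and with chr11:32232001-32236000, on the far side of the genes, was at least 21.6-fold and 18.6-fold higher. For chr11:32088001-32092000 with chr11:32112001-32116000 and for chr11:32100001-32104000 with chr11:32204001-32208000 the bounds were 22.6-fold and 21.3-fold. These levels rest on 27 to 37 distinct fragment pairs from CTCF and differed several-fold between some of its replicates. Without replicate 1 only the first of these 5 pairs was called, and single pairs were also lost without replicate 2 or replicate 3.

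Between element windows the pairs more frequent from R2 again lay between R1 and the genes, except R1 with CTCF +48, and with less certainty. Of 43 pairs of windows with at least 10 counts, 10 were more frequent from R2 (23.3%) and 1 was less frequent (2.33%). R1 was in 4 of the 10, with R3, Hba-x, Hba-a1 and CTCF +48; Rm was in 4, with R4, Hba-x, Hba-a1 and Hba-a2; the others were R4 with Hba-a2 and Hba-x with Hba-a1. R1 with Hba-a1 had 1.83 ± 0.23 pairs per 1000 from R2 and 0.093 ± 0.11 from CTCF (SD, n = 3; log2 4.78 ± 1.48, edgeR adjusted p = 0.016). Rm with Hba-a1 had 1.25 ± 0.54 and 0.074 ± 0.052 (log2 4.07 ± 1.43, edgeR adjusted p = 0.023). The pair R1 with CTCF +48, whose 75 counts from R2 came from 16 distinct fragment pairs and whose 5 counts from CTCF came from 2, differed by 5.30 ± 1.60.

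The 1 less frequent pair crossed the whole active interval. The upstream flank with CTCF +44 had 156 counts, from 43 distinct fragment pairs, seen from CTCF and 2 counts seen from R2 (0.59 ± 0.32 and 0.0067 ± 0.012 per 1000, log2 -5.86 ± 1.69, edgeR adjusted p = 0.015). None of these 11 calls was made when any 1 of the 3 replicates was left out, and none without the first technical replicates. With no replicate block there were 19 more frequent and 3 less frequent pairs, with TMM factors 23 and 1, and with every fragment pair taken as 1 in each library 20 and 3.

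The pair of the gene copies was the most frequent of all windows from both viewpoints. Hba-a1 with Hba-a2 had 47.3 ± 6.9 pairs per 1000 from R2 and 10.95 ± 4.6 from CTCF (SD, n = 3), a log2 difference of 2.18 ± 1.25 that was not called (edgeR adjusted p = 0.15). A pair of 4 kb bins at the copies, chr11:32184001-32188000 with chr11:32196001-32200000, had 37.5 ± 7.3 and 8.90 ± 4.0 per 1000. This pair was called (log2 2.14 ± 0.42, edgeR adjusted p = 1.4e-05). The near-equal counts of the copies' fragments, given above, stand beside these levels, and their part in them was not tested.

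Once each bin's own frequency in such pairs was taken into account, few pairs differed between viewpoints. The count expected for each pair of bins was fitted per viewpoint and replicate, and entered edgeR's test as an offset. It came from each bin's summed pairs with other bins, the tested pair among them, and from the separation of both bins. Partners in the same bin did not enter. This test is called beyond single contacts below. Of 586 pairs of bins, 1 was then higher from R2 (0.171%) and 2 were lower (0.341%), with 24 at an unadjusted p below 0.05. Both lower pairs join bins at Hba-a1 and Hba-a2: chr11:32184001-32188000 with chr11:32196001-32200000 differed by -1.46 ± 0.18 (edgeR adjusted p = 5.0e-13), and chr11:32180001-32184000 with the same bin by -1.56 ± 0.24. Without the offset both were higher from R2, by 2.14 ± 0.42 and 2.01 ± 0.46 (edgeR adjusted p = 1.4e-05 and 3.4e-04). The higher pair joins neighbouring bins upstream of CTCF, chr11:32124001-32128000 with chr11:32128001-32132000 (1.76 ± 0.45, edgeR adjusted p = 0.016), and was not called when any 1 replicate was left out. Without the offset that pair was lower from R2 (-2.68 ± 0.62, edgeR adjusted p = 3.5e-04), so all 3 pairs changed sign. Of 42 pairs of windows edgeR called 0, with 4 at an unadjusted p below 0.05 and a lowest adjusted p of 0.48; no other tool was run on this test. Counts were also simulated at this depth on the same 586 pairs, with 1 spread shared by all pairs. A log2 change of 3 was recovered in 0.685% of the changed pairs, so at that spread such changes would mostly be missed. The test lets the spread differ between pairs, which the simulated counts did not, so recovery in the real counts may be other.

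Pairs from R2 mostly stayed downstream, whereas pairs from CTCF were split between wholly downstream and wholly upstream, with a minority on opposite sides. Over pairs with both fragments outside the interval between the viewpoints, 85.5% ± 1.8 of those from R2 lay wholly downstream of R2 and 9.43% ± 1.9 wholly upstream of CTCF. From CTCF the shares were 46.01% ± 3.9 and 40.8% ± 2.4. Pairs with a fragment on each side made up 4.87 to 5.36% from R2 and 11.3 to 15.0% from CTCF, so that every CTCF replicate was above every R2 replicate (exact sign-flip p = 0.25, the smallest possible).

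Neighbouring fragments weigh on these shares. Where partners were at least 2 kb apart, a setting added after the data had been seen, 13.1% ± 1.9 of R2 pairs and 37.0% ± 0.79 of CTCF pairs lay on opposite sides. If both partners were drawn independently from the single contacts of those pairs, 18.8% ± 1.7 and 49.1% ± 1.2 would, so both viewpoints had fewer such pairs than that. The median separation of these partners was 13.4, 13.1 and 13.3 kb from R2 and 35.6, 33.3 and 32.34 kb from CTCF. Over all pairs the order was the other way, with medians of 0.48 ± 0.21 kb and 0.279 ± 0.060 kb.

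The zones in which partners lay also differed between viewpoints. Of the partners of enhancer-side fragments, at least 2 kb away, 41.3% ± 1.0 lay in the genes and 37.4% ± 0.85 on the enhancer side itself when seen from R2, against 23.999% ± 2.6 and 20.1% ± 1.6 from CTCF. From CTCF, 21.4% ± 2.3 of them lay in the proximal upstream zone, against 4.20% ± 0.38 from R2. Partners of fragments in the downstream CTCF zone lay in the genes in 28.6% ± 3.9 of cases from R2 and 10.2% ± 1.7 from CTCF, and in the proximal upstream zone in 11.8% ± 2.3 and 27.1% ± 2.3. Over all pairs, where neighbouring fragments of the same zone dominate, these shares were smaller: enhancer-side partners lay in the genes in 13.6% ± 2.5 and 9.95% ± 0.94 of cases, and downstream CTCF partners in 12.4% ± 3.4 and 4.28% ± 0.98.

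Both viewpoints can be met on 1 read, and such triplets were seen from either end. From R2, 1486 counts held the CTCF viewpoint's stretch and 1 further fragment (8.92 ± 1.6 per 1000 in-range pairs), and from CTCF 1598 held that of R2 (5.50 ± 0.28). The third fragment lay in the genes in 27.9% ± 4.7 of those seen from R2 and 26.9% ± 10.8 of those seen from CTCF, and on the enhancer side in 15.9% ± 2.3 and 18.4% ± 5.7. Over the 140 bins, the log2 counts (plus 1) of the third fragment had a correlation of 0.75 between viewpoints; the bins share libraries and fragment sizes, and the value is a description. Counted once per library the triplets numbered 526 and 524, and the correlation was 0.83. Such reads are 1 class of molecule seen from either end, so like values are partly set by how they were chosen. The replicates of both viewpoints overlapped in the genes and on the enhancer side, but not between the viewpoints, where the shares were 18.2, 16.3 and 19.3% from R2 and 12.2, 13.9 and 11.3% from CTCF. Distal upstream they were also apart, by little (7.282, 7.588 and 7.234% against 8.223, 7.591 and 8.170%). Counted once per library, the replicates overlapped in both of these zones. Between the viewpoints the shares were then 19.5, 14.8 and 10.1% from R2 and 7.44, 12.9 and 10.9% from CTCF.

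**Figure D5:**
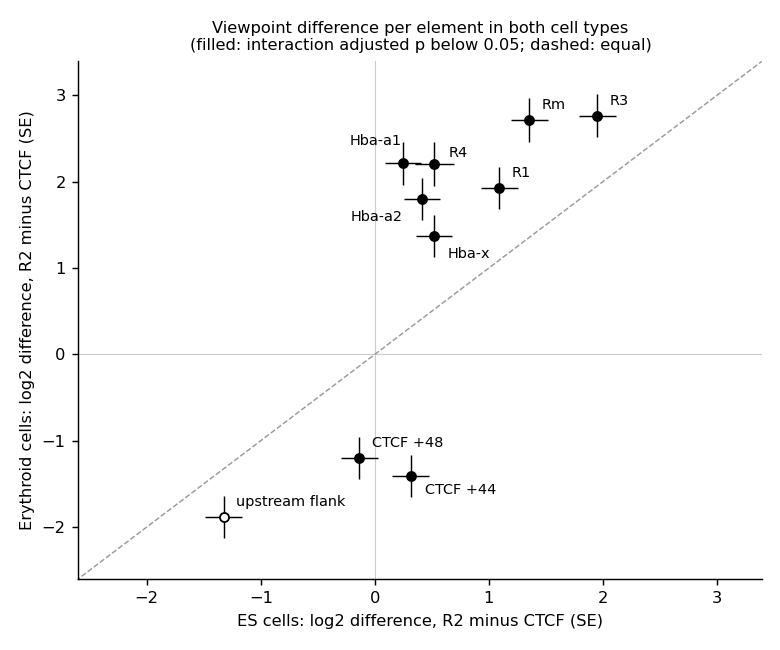
Log2 difference R2 minus CTCF of each element window in erythroid cells against that in ES cells, with standard errors. Filled points had an interaction adjusted p below 0.05 and the dashed line marks equal values; the enhancers and genes lie above it and the CTCF windows below.

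In ES cells, where the viewpoints have the same positions along the chromosome and the locus is inactive, the viewpoints differed less at the genes and the downstream sites. There 17 of 140 bins were higher from R2 (12.1%) and 28 lower (20%). The test of the difference itself, viewpoint by cell type over all 12 profiles, called 17 bins in which R2 minus CTCF was higher in erythroid cells (12.1%) and 67 in which it was lower (47.9%). Of the 17, 10 lay in the genes, 6 on the enhancer side and 1 between the viewpoints, and all 7 bins of the gap were among the 67. With TMM factors the counts were 23 and 6. Without ES replicate 1 or ES replicate 3, only 38 bins were lower.

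Among the windows, R2 minus CTCF was higher in erythroid than in ES cells for all 7 enhancer and gene windows and lower for both downstream CTCF windows, by the test of the interaction. Hba-a1 had 33.7 ± 2.8 contacts per 1000 from R2 and 28.4 ± 3.2 from CTCF in ES cells (log2 0.25 ± 0.16, edgeR adjusted p = 0.14), and its interaction was 1.96 ± 0.29 (edgeR adjusted p = 3.4e-07). For R4 the interaction was 1.69 ± 0.30, for Hba-a2 1.38 ± 0.29 and for Rm 1.36 ± 0.29. R1 and R3, next to R2, already differed in ES cells, by 1.09 ± 0.16 and 1.95 ± 0.16, and their interactions were 0.83 ± 0.28 and 0.81 ± 0.29. Without ES replicate 1 these were 0.68 and 0.74 and were not called (edgeR adjusted p = 0.068 and 0.054). R3 had 68.0 ± 4.0 contacts per 1000 from R2 in ES cells against 61.2 ± 1.9 in erythroid cells, whereas from CTCF it had 17.7 ± 3.4 and 9.06 ± 1.4. Hba-x lay with these at 0.85 ± 0.29.

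The downstream CTCF windows moved the other way. CTCF +44 had 17.8 ± 2.7 contacts per 1000 from R2 and 14.5 ± 3.9 from CTCF in ES cells (log2 0.32 ± 0.16, edgeR adjusted p = 0.080), so that the interaction was -1.73 ± 0.29 (edgeR adjusted p = 2.7e-06; with TMM factors -0.65 and not called). For CTCF +48 it was -1.06 ± 0.29, and with TMM factors 0.03. The upstream flank was lower from R2 in both cell types, by 1.88 ± 0.24 and 1.33 ± 0.16 on the log2 scale, and its interaction did not pass (-0.56 ± 0.29, edgeR adjusted p = 0.058; 0.53 with TMM factors).

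The single bins with the largest interaction repeated this. The bin at Hba-a1, chr11:32184001-32186000, had a mean of 95.7 contacts per 1000 from R2 and 19.9 from CTCF in erythroid cells and 27.6 and 25.3 in ES cells (interaction 2.26 ± 0.28, edgeR adjusted p = 1.2e-05). The bins at the border of Rm and R4 and at R4, chr11:32166001-32168000 and chr11:32168001-32170000, had interactions of 2.00 ± 0.29 and 1.89 ± 0.70. The latter was not called without erythroid replicate 2 or without any 1 of the ES replicates (edgeR adjusted p = 0.056 to 0.082). In the distal upstream and distal downstream zones chr11:32000001-32002000, chr11:32078001-32080000 and chr11:32280001-32282000 had -4.04 ± 0.89, -2.98 ± 0.45 and -2.97 ± 0.76, the last of which was not called with TMM factors.

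By zone, the share of the genes differed between viewpoints by 28.4 percentage points in erythroid cells and 3.96 in ES cells. In the gap the sign differed: it was lower from R2 by 9.28 points in all 3 erythroid replicates and higher by 1.85 in all 3 ES replicates. The exact permutation test of both cell types' paired differences gave 0.1 in each case, the smallest 3 against 3 allow, and 0.13 after adjustment over the 8 zones. The share of pairs on opposite sides was lower from R2 by 8.12 points in erythroid cells and by 1.95 in ES cells (exact permutation p = 0.1, 0.15 after adjustment over 3 classes).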

How the data were processed

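The deposited values are whole-number counts, per the files: the authors' tables list fragment pairs, with 1 column of counts for every library. The submitters' processing notes name Trim Galore, Bowtie and the build mm9; filtering, duplicate removal and fragment calling are not given in the sources used here. The 10 erythroid libraries (3, 3 and 4 technical replicates) and 7 ES libraries were each summed into 3 biological replicates. Contacts were counted, by fragment midpoint, in 2 kb bins (at least 50 counts), 3 kb windows, 4 kb bin pairs (at least 30) and window pairs (at least 10).

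Tests used edgeR 4.0.16 in R 4.3.3 (quasi-likelihood, replicate as block, in-range pairs as library size, no factors, Benjamini-Hochberg adjustment over all features). The standard error is the log2 change over the square root of F. The offset for pairs came from 200 rounds of iterative scaling. DESeq2 1.42.0 was an alternative. Shares were compared by exact sign-flip or permutation tests. Python 3.11.15 did the rest. Scripts were tested on simulated data with 1 spread shared by all features. A log2 change of 1.5 was recovered in 54.3% of changed bins of the R2 against CTCF comparison (140 bins), in 65.7% for the interaction (140 bins), and in 0% of changed bin pairs (591 pairs).

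The block pairs the viewpoints because both tables hold the same libraries; deviations from the viewpoint means correlated by -0.11, 0.06 and -0.08 over bins within replicates. The members, windows, zones and rules were chosen with earlier results of these data known. Besides all windows and zones, the rule for naming took, in each direction, at most 5 bins, 5 bin pairs and 3 interaction bins: ranked by size of change, among called features whose 3 replicates shared the sign. Alternatives covered bin size, minimum counts, scaling, duplicates, left-out distance, the block and left-out replicates; the setting with partners at least 2 kb apart was added after the data were seen. Tables of the beta-globin locus were not used here.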

Additional observations from a re-analysis of the deposited data

Results flagged for a closer look

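Several differences between the viewpoints themselves differed between erythroid and ES cells, by edgeR's test of the interaction. As log2 values, erythroid minus ES, these were 0.83 for R1, 0.81 for R3, 1.36 for Rm, 1.69 for R4, 0.85 for Hba-x, 1.96 for Hba-a1, 1.38 for Hba-a2, -1.73 for CTCF +44 and -1.06 for CTCF +48. For single 2 kb bins they were 2.26 at chr11:32184001-32186000, 2.00 at chr11:32166001-32168000, 1.89 at chr11:32168001-32170000, -4.04 at chr11:32000001-32002000, -2.98 at chr11:32078001-32080000 and -2.97 at chr11:32280001-32282000. The bin at -4.04 had 29 counts in all from R2 in erythroid cells.

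In 5 measures, picked for this among all those compared, every erythroid replicate moved one way and every ES replicate the other over all pairs. R2 minus CTCF was -9.28 percentage points in erythroid cells for the share of the gap, -16.0 contacts per 1000 in-range pairs between 80 and 100 kb upstream, and 0.20 kb for the median separation of partners. Among partners of downstream CTCF fragments it was 8.12 points for the share in the genes, and among partners of distal upstream fragments -3.46 points for the share in the same zone. The exact permutation p was 0.1 for each, the smallest possible, so the differences do not pass a test. The median separation was under 1 kb for both viewpoints, since most partners are neighbouring fragments. With every fragment pair taken as 1 in each library, the same-zone share of distal upstream partners turned to 2.57 points in erythroid cells. With partners at least 2 kb apart, its mean was negative in erythroid and ES cells (-8.09 and -4.75). The mean share in the genes among downstream CTCF partners was then positive in both (18.4 and 2.00 points).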

How the results depend on the processing

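The 7 rises at enhancer and gene windows were called under every alternative run on them, as were 3 falls except with other scaling factors: with TMM or DESeq2 factors 0 windows were lower, and the values turned to 0.16 and 0.069 for CTCF +44 and to 0.38 and 0.29 for CTCF +48. Lower bins numbered 2 with TMM and 7 with DESeq2, since these factors move the median to near 0. Bins of 1 kb gave 43 higher and 155 lower, and of 4 kb 12 and 52. For the interaction, TMM left 6 lower bins and 0 lower windows, and turned the upstream flank to 0.53 and CTCF +48 to 0.028; leaving out 1 replicate gave 38 to 77 lower bins.

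The replicate block mattered for three-way contacts only: with no replicate block, lower bin pairs numbered 134, window pairs 19 and 3, and bin pairs beyond single contacts 2 higher, whereas bins numbered 23 and 90. Bin pairs numbered 26 and 20 with 10 kb left out, and lower ones 94 with DESeq2, 92 counted once, 31 in first technical replicates alone and 35 with no minimum. Without first technical replicates they numbered 41 and 34. Leaving out 1 replicate gave 25 to 38 higher and 14 to 38 lower. Window pairs numbered 0 and 0 with 10 kb left out, without any 1 replicate or without first technical replicates, 20 and 3 counted once, and 25 higher with DESeq2 and 23 with TMM. Lower ones numbered 0 in first technical replicates alone and 2 with partners at least 2 kb apart. Beyond single contacts, bin pairs numbered 2 and 5 counted once and 3 and 4 when expected from single contacts alone; leaving out 1 replicate gave 0 higher.

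Zone differences (R2 minus CTCF, percentage points) kept their sign. With 10 kb left out, where no bin remains between the viewpoints, they were -12.4 distal upstream, -15.3 proximal upstream, 12.5 on the enhancer side, 37.01 at the genes, -11.98 in the gap, -4.86 at downstream CTCF and -4.95 distal downstream. Counted once they were -16.1 proximal upstream, 17.04 on the enhancer side, -6.77 in the gap and -5.15 distal downstream; with partners at least 2 kb apart the enhancer side had 15.8. Bands counted once differed by 310.8 (downstream 20 to 40 kb), -67.6 (upstream 20 to 40 kb) and -23.2 (upstream 80 to 100 kb). With partners at least 2 kb apart they differed by 389.4, -96.3, -217.9 (downstream 60 to 80 kb) and -104.3 (downstream 80 to 100 kb). Partner classes counted once differed by -20.05 (both upstream) and -13.97 (opposite), and with partners at least 2 kb apart by -22.01, 45.9 (both downstream) and -23.9 (opposite). The median separation turned to -3.46 kb counted once and -20.5 kb with partners at least 2 kb apart. The cause of these shifts was not tested. At the depth of these data, and with 1 spread shared by all pairs, simulated log2 changes of 3 were recovered in 2.72% of changed bin pairs and in 0% of changed window pairs.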
